A study of Homo sapiens with 22 samples.

Results

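Solute carriers are membrane proteins that move amino acids, sugars, ions, metals, vitamins and many other small molecules into, out of and within cells. Here they were taken as every gene symbol written as SLC, a family number, the letter A and a member number, and chosen by their level in these same samples: 1 RPKM or more in 2 or more of the 10 samples. Of 20668 symbols, 301 had that form and 163 of them met the level, from 42 of 47 families. The samples were RNA-seq libraries of MDA-MB-231, a human triple-negative breast cancer (TNBC) cell line, all grown beforehand in medium with charcoal-stripped serum, which is poor in steroid hormones. Cells received vehicle, 100 nM Dex (dexamethasone, a synthetic glucocorticoid) for 2 h or 4 h, or 10 μM CpdA (Compound A, a selective modulator of the glucocorticoid receptor, GR) for 2 h or 4 h, with 2 replicates in each of the 5 groups. No time point is labelled for vehicle, and the same 2 vehicle samples served as the reference for all 4 treatments. It is 1 cell line, and whether a difference would hold in another was not measured.

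A solute carrier works as a gate that changes shape around its cargo: some let a solute run down its own gradient, others couple it to sodium or protons, and others swap one solute for another. Because carriers set which nutrients a cell can reach, glucocorticoids are known in many tissues for altering the supply of amino acids, glucose and phosphate. GR itself is a transcription factor that enters the nucleus when a ligand such as Dex binds it. The question asked here was which substrate classes changed in RNA level after Dex and after CpdA, and when.

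The files gave RPKM, that is reads on a gene scaled by its transcript length and by the mapped reads of the sample, without read totals. The spacing of low values gave only the relative depth, which was 1 and 1.01 for the vehicle samples and 1.06 to 1.21 for the 8 treated ones. Vehicle was thus the shallowest group. That difference moves with treatment, and its part in the results below was not tested. Among genes read as markers of the line, VIM lay between 1267 and 1464 RPKM in the 10 samples. ESR1 was at or below 0.00484 and PGR at or below 0.00253 RPKM. CDH1 lay between 0.226 and 0.465, EPCAM between 8.02 and 10.6, ERBB2 between 15.9 and 21.6 and KRT18 between 164 and 218 RPKM. The GR target FKBP5 lay at 5.94 and 7.06 RPKM with vehicle, between 73.4 and 211.8 with Dex and between 5.97 and 7.96 with CpdA. TSC22D3 lay at 8.22 and 9.79 with vehicle, 302 to 315 with Dex and 10.5 to 12.4 with CpdA. PER1 lay at 1.28 and 2.07 with vehicle, 34.9 to 38.7 with Dex and 2.88 to 3.96 with CpdA. The labels of the Dex samples thus matched the response of these genes. With CpdA, FKBP5 overlapped vehicle, whereas TSC22D3 and PER1 lay above both vehicle samples. The SD of the log2 difference between the 2 replicates over the 163 members was 0.150 for vehicle, 0.106 and 0.175 for Dex at the earlier and later time, and 0.103 and 0.0870 for CpdA.

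The members covered a wide range of levels. On average over the samples 77 lay above 10 RPKM and 11 above 100 RPKM, and 152 were at or above 1 RPKM in every sample. The highest mean belonged to SLC7A5 (LAT1, which imports large neutral amino acids) at 300.1 RPKM, followed by SLC2A1 (GLUT1, the common glucose transporter) at 273, SLC25A3 (the mitochondrial phosphate carrier) at 253 and SLC16A3 (MCT4, which exports lactate) at 240 RPKM. SLC25A5, an exchanger of ADP and ATP across the inner mitochondrial membrane, followed at 220 RPKM. The sum of all members was 4005 and 4061 RPKM with vehicle, 4275 and 4302 after 2 h and 4351 and 4348 after 4 h of Dex, and 4018 and 3990 after 2 h and 4133 and 4071 after 4 h of CpdA. The 4 Dex samples lay above the other 6. At Dex 2 h the mean sum was 256 RPKM above vehicle, and SLC20A1 alone was 274 RPKM higher.

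At the edge of the choice, the second-highest RPKM was 1.05 for SLC25A45 and 1.11 for SLC27A5 and SLC25A18, just inside, and 0.900 for SLC4A5, 0.871 for SLC25A27 and 0.856 for SLC25A35, just outside. In all, 11 members reached 1 RPKM in only 2 to 9 samples: SLC1A3, SLC2A10, SLC5A10, SLC7A7, SLC22A15, SLC25A18, SLC25A45, SLC26A1, SLC27A5, SLC40A1 and SLC45A1. SLC25A18 and SLC7A7 reached it only in the 2 Dex 4 h samples. SLC45A1 reached it in every Dex sample but, outside them, only in CpdA 2 h replicate 1. The place of SLC25A18, SLC7A7 and SLC45A1 among the members thus rests on the Dex response itself. The levels of these 11 are therefore given below as a description, without an adjusted p. They were part of the fit and are included in the counts of calls over all members and classes. Where they change a count of calls in a comparison, it is also given for the 152 members at or above 1 RPKM in every sample. Counts over alternative analyses and of upstream matches include them, and no such count leaves them out. Where any of the 11 is named as called, also in every alternative, that is not support for a response, since the choice used the same values. SLC16A1, a monocarboxylate transporter of many tissues, lay between 0.138 and 0.255 RPKM and is not a member.

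Against vehicle, a gene is called here when limma gave a Benjamini-Hochberg adjusted p under 0.05 over the 12713 genes tested. Dex at 2 h gave 15 members called higher (9.20%, against 4.49% of all genes tested) and 8 called lower (4.91%, against 5.82%). At 4 h Dex gave 26 higher (16.0%, against 9.26%) and 29 lower (17.8%, against 18.2%). CpdA at 2 h gave 3 higher (1.84%, against 1.89%) and 9 lower (5.52%, against 4.29%), and at 4 h 15 higher (9.20%, against 6.76%) and 27 lower (16.6%, against 13.8%). Among the 152 members the higher and lower calls were 13 and 8, 21 and 28, 3 and 9, and 14 and 27 in the same order. The share called higher by Dex was then 8.55% at 2 h and 13.8% at 4 h, above that of all genes but closer to it. Shares of lower calls lay near those of all genes at Dex 2 h and 4 h and somewhat above them with CpdA. In all, 79 members, those at the edge of the choice included, were called in at least 1 of the 4 comparisons and 84 in none. The share of all genes called in at least 1 of them was not computed, so these 2 counts have no background beside them.

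Large changes were mostly with Dex. Past a 2-fold change, Dex called 5 members at 2 h (3.07%, against 2.01% of all genes) and 11 at 4 h (6.75%, against 3.78%), all of them higher. SLC25A18 was among the former, and SLC25A18, SLC7A7 and SLC45A1 among the latter, so that 4 of the 152 (2.63%) and 8 (5.26%) remain without the members at the edge of the choice. CpdA at 4 h called 1 past 2-fold (0.613%, against 0.889%), SLC7A11, and the largest called change at CpdA 2 h was the fall of SLC9A7 by 0.57 on the log2 scale, while 0.488% of all genes passed 2-fold at that time. The median log2 change of the members was -0.01 and -0.03 for Dex and -0.03 and -0.07 for CpdA at the earlier and later time, beside -0.02, -0.05, -0.02 and -0.04 for all genes tested. RPKM are shares of each library, so a lower value cannot be told apart from more RNA of other genes, nor fewer cells from less RNA per cell.

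Which calls held depended on the samples. Called in every alternative analysis were 13 of 23 at Dex 2 h, 31 of 55 at Dex 4 h, 2 of 12 at CpdA 2 h (SLC25A25 and SLC9A7) and 15 of 42 at CpdA 4 h. The Dex counts include members at the edge of the choice. These are SLC25A18 at 2 h, and SLC25A18, SLC7A7, SLC22A15 and SLC45A1 at 4 h. No call changed sign in any of them. Leaving out Dex 2 h replicate 1 left 15 members called at Dex 2 h. At CpdA 2 h the count was 2 without vehicle replicate 2 or without either CpdA 2 h replicate, 6 without either CpdA 4 h replicate and 22 without either Dex 4 h replicate. At CpdA 4 h it was 20 and 22 without CpdA 4 h replicate 1 and 2, and 64 without either Dex 4 h replicate. The balance of directions depended on scaling: with samples scaled to a common median the higher and lower calls became 34 and 19 after 4 h of Dex, and 4 and 4, then 22 and 14, after 2 h and 4 h of CpdA, and with quantile normalization 32 and 23, 4 and 6, and 17 and 20.

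**Figure D1:**
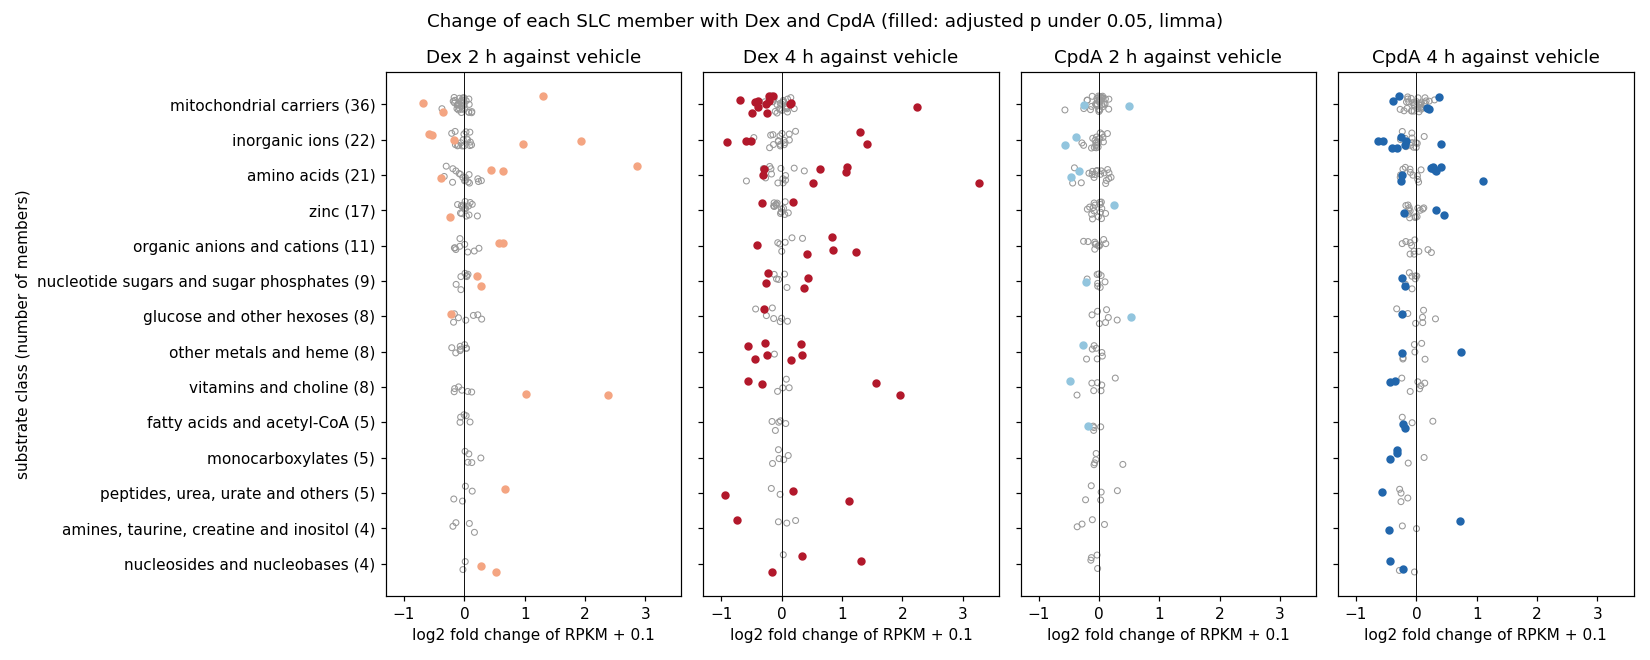
Change of each of the 163 members on the log2(RPKM + 0.1) scale (horizontal axis) against vehicle for Dex and CpdA at 2 h and 4 h, by substrate class (rows, with the number of members), where filled points passed an adjusted p under 0.05 in limma and open points did not. The points past 1 on the right are nearly all in the Dex panels, 5 called at 2 h and 11 at 4 h, of which 4 and 8 are at or above 1 RPKM in every sample, and the CpdA 4 h panel holds 1.

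Amino acid carriers (21 members) had 3 calls higher and 1 lower after 2 h of Dex and 5 and 2 after 4 h, against 0 and 2 after 2 h of CpdA and 7 and 2 after 4 h. SLC7A7 and SLC1A3, at the edge of the choice, are 2 of the 5, which leaves 3 higher at Dex 4 h among the other 19 carriers. Of all genes tested, 9.26% were called higher and 18.2% lower at Dex 4 h, and 6.76% and 13.8% at CpdA 4 h. At 2 h the shares were 4.49% and 5.82% with Dex and 1.89% and 4.29% with CpdA. SLC7A2 (CAT2), an importer of arginine and lysine, had the strongest Dex response of all members. Its RPKM was 2.00 and 2.44 with vehicle, 16.1 and 17.1 after 2 h and 19.7 and 25.4 after 4 h of Dex, and 1.58 and 1.64 after 2 h and 2.02 and 2.23 after 4 h of CpdA. All 4 Dex samples lay far above the other 6, with no overlap. The log2 change was 2.86 ± 0.13 (SE, limma adjusted p = 8e-07) at 2 h and 3.28 ± 0.13 (SE, limma adjusted p = 1.7e-07) at 4 h.

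SLC38A2 (SNAT2), a sodium-coupled carrier of small neutral amino acids, was far more abundant. It stood at 90.6 and 96.1 RPKM with vehicle, 147 and 146 after 2 h and 184 and 212 after 4 h of Dex, and 107 and 107 after 2 h and 117 and 117 after 4 h of CpdA. Dex samples were highest, and the CpdA samples also lay above both vehicle samples. With Dex it rose by 0.65 ± 0.0616 (SE, limma adjusted p = 0.00012) at 2 h and 1.08 ± 0.0616 (SE, limma adjusted p = 2e-06) at 4 h, and with CpdA by 0.32 ± 0.0616 (SE, limma adjusted p = 0.0063) at 4 h. SLC38A4 (SNAT4), a related carrier, rose with Dex at 4 h by 0.63 ± 0.0990 (SE, limma adjusted p = 0.0013). Its 2 h call ended without vehicle replicate 2 (log2 0.31, adjusted p = 0.13). SLC7A7 (y+LAT1), a light chain that pairs with SLC3A2, lay at 0.782 and 0.758 RPKM with vehicle and 1.74 and 1.72 at Dex 4 h, and between those at the other times.

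The largest rise in this class with CpdA was that of a cystine carrier at 4 h. SLC7A11 (xCT) exchanges glutamate for cystine, the precursor for glutathione, and runs as a complex with the heavy chain SLC3A2. SLC7A11 measured 12.3 and 16.8 RPKM with vehicle, 11.1 and 11.7 after 2 h and 7.63 and 12.0 after 4 h of Dex, and 11.1 and 12.4 after 2 h and 30.6 and 31.8 after 4 h of CpdA. Only the CpdA 4 h pair stood above vehicle, with a log2 change of 1.11 ± 0.19 (SE, limma adjusted p = 0.004). SLC3A2 stood at 128 and 147 RPKM with vehicle and 182 and 182 at CpdA 4 h, a change of 0.41 ± 0.0600 (SE, limma adjusted p = 0.0017). At Dex 4 h SLC7A11 was at -0.59, which did not pass (limma adjusted p = 0.052).

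SLC1A5 moved apart under the 2 ligands at 4 h, whereas SLC7A5 was called with each ligand at a different time. SLC1A5 (ASCT2), a glutamine importer, lay at 111 and 114 RPKM with vehicle, 99.8 and 104 after 2 h and 88.2 and 92.7 after 4 h of Dex, and 119 and 119 after 2 h and 131 and 133 after 4 h of CpdA. It fell with Dex at 4 h (-0.31 ± 0.0412 (SE, limma adjusted p = 0.00047)) and rose with CpdA at 4 h (0.23 ± 0.0412 (SE, limma adjusted p = 0.0042)). SLC7A5 lay at 292 and 338 RPKM with vehicle, 237 and 245 at Dex 2 h and 379 and 369 at CpdA 4 h. The lower value at Dex 2 h (-0.38 ± 0.0660 (SE, limma adjusted p = 0.0051)) did not pass without Dex 2 h replicate 1 (log2 -0.36, adjusted p = 0.053), and the higher value at CpdA 4 h (0.25 ± 0.0660 (SE, limma adjusted p = 0.027)) did not pass without CpdA 4 h replicate 1 (log2 0.23, adjusted p = 0.15). SLC6A9 (GlyT1), a glycine importer, rose at CpdA 4 h by 0.27 ± 0.0429 (SE, limma adjusted p = 0.0026). The summed RPKM of the 21 carriers was 807 and 889 with vehicle, 799 and 824 after 2 h and 859 and 944 after 4 h of Dex, and 837 and 851 after 2 h and 1021 and 1014 after 4 h of CpdA.

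Of the remaining calls in this class, SLC1A4 (ASCT1) was higher at CpdA 4 h (0.31) and ended without CpdA 4 h replicate 1 (log2 0.28, adjusted p = 0.16). SLC38A10 was lower at CpdA 4 h (-0.26) and ended without CpdA 4 h replicate 2 (log2 -0.22, adjusted p = 0.074). SLC38A6 was lower at Dex 4 h (-0.29) and ended without vehicle replicate 1 (log2 -0.23, adjusted p = 0.079). SLC36A1 (PAT1) and SLC7A6 (y+LAT2) were lower at CpdA 2 h, with log2 changes of -0.47 and -0.33, and neither passed without CpdA 2 h replicate 1 (log2 -0.44, adjusted p = 0.22, and log2 -0.27, adjusted p = 0.25). SLC7A6, which exchanges cationic for neutral amino acids, was also lower at CpdA 4 h (-0.24), a call that ended without CpdA 4 h replicate 1 (log2 -0.21, adjusted p = 0.23). SLC1A3 (EAAT1), a glutamate importer near the edge of the choice, lay at 1.14 and 0.958 RPKM with vehicle and 1.47 and 1.61 at Dex 4 h.

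**Figure D2:**
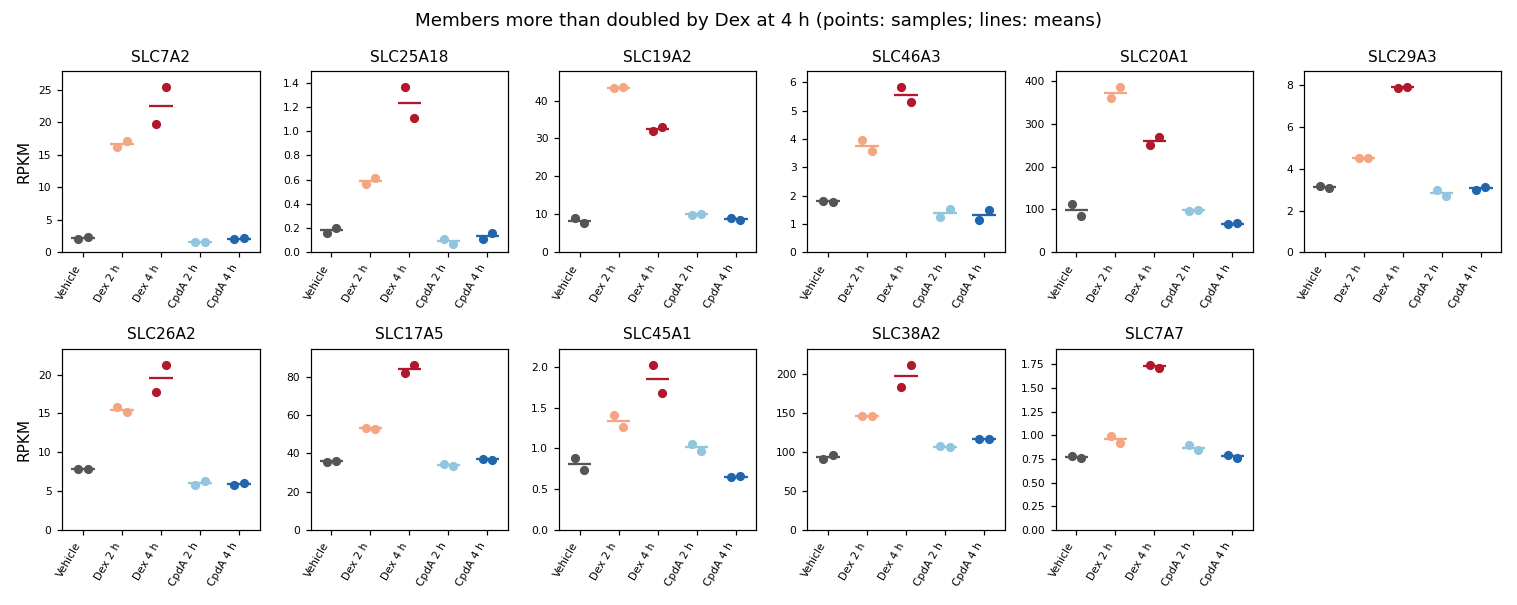
RPKM (vertical axes, each from 0) of the 11 members more than 2-fold higher at Dex 4 h, in the 5 groups, where points are the 2 samples of a group and lines their mean. SLC19A2 and SLC20A1 were highest at Dex 2 h and the other 9 at Dex 4 h, and SLC25A18, SLC7A7 and SLC45A1 are members at the edge of the choice.

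Vitamin and choline carriers (8 members) held the second-largest Dex response at 2 h. SLC19A2 (THTR1), the high-affinity thiamine (vitamin B1) transporter, measured 9.0 and 7.62 RPKM with vehicle, 43.3 and 43.5 after 2 h and 31.9 and 33.1 after 4 h of Dex, and 9.86 and 10.1 after 2 h and 8.94 and 8.52 after 4 h of CpdA. The Dex pairs did not overlap any other sample, and the 2 h pair was above the 4 h pair. The change was 2.37 ± 0.0710 (SE, limma adjusted p = 8.1e-08) at 2 h and 1.96 ± 0.0710 (SE, limma adjusted p = 1.2e-07) at 4 h. SLC46A3, a lysosomal carrier of the proton-coupled folate transporter family, lay at 1.82 and 1.78 RPKM with vehicle, 3.95 and 3.56 after 2 h and 5.82 and 5.30 after 4 h of Dex, and 1.25 and 1.52 after 2 h and 1.15 and 1.49 after 4 h of CpdA. It rose with Dex by 1.02 ± 0.13 (SE, limma adjusted p = 0.00094) at 2 h and 1.57 ± 0.13 (SE, limma adjusted p = 2.7e-05) at 4 h. Its lower value at CpdA 4 h (-0.43 ± 0.13 (SE, limma adjusted p = 0.049)) ended in 7 of the 9 alternatives that kept all samples. It also ended in 7 of 10 analyses that each left out 1 sample. Without CpdA 4 h replicate 1 the log2 change was -0.26.

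SLC46A1 (PCFT), the folate transporter of the same family, went the other way with Dex. It lay at 4.26 and 4.68 RPKM with vehicle and 2.89 and 3.09 at Dex 4 h, a log2 change of -0.56 ± 0.0749 (SE, limma adjusted p = 0.00049). SLC44A2, a choline transporter-like protein and the most abundant of the class, stayed between 102 and 117 RPKM over the 10 samples and was not called against vehicle. The lower values of SLC23A2, a vitamin C transporter, did not pass without vehicle replicate 2 at Dex 4 h (log2 -0.28, adjusted p = 0.14) nor without CpdA 2 h replicate 1 at CpdA 2 h (log2 -0.42, adjusted p = 0.17). In all, this class had 2 higher and 0 lower after 2 h of Dex and 2 and 2 after 4 h, against 0 and 1 after 2 h of CpdA and 0 and 2 after 4 h. Over all genes tested, the higher and lower shares with Dex were 4.49% and 5.82% at 2 h and 9.26% and 18.2% at 4 h. With CpdA they were 1.89% and 4.29% at 2 h and 6.76% and 13.8% at 4 h.

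The bases before the start of 4 Dex-responsive members are shown because GR is known to bind DNA at a pair of 6-base arms, AGAACA and TGTTCT, held 3 bases apart. The 250 bases upstream of each RefSeq start were searched for this pattern, which reads the same on both strands, with 12 scored positions. The closest stretch in each is in capitals. SLC19A2 and SLC7A7 have more than 1 start and 1 of each is shown. For SLC7A7 it is the start with the fewest mismatches, and its other starts had 4 and 5. SLC7A7 is also a member at the edge of the choice. Coordinates are of GRCh38.p14, which is not the build of the RNA files.

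SLC19A2, chr1:169485945-169486194, minus strand, 4 mismatches: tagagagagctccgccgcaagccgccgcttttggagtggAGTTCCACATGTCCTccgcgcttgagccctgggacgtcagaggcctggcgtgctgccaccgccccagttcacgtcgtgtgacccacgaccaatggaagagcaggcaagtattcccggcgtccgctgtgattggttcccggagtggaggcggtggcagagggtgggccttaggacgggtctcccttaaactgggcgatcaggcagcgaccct
SLC20A1, chr2:112645689-112645938, plus strand, 6 mismatches: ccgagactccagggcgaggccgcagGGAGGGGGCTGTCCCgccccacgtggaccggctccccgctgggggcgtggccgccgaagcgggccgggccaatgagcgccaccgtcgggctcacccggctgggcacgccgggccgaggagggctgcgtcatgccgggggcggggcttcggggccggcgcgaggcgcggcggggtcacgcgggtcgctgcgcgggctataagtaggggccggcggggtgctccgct
SLC46A3, chr13:28718971-28719220, minus strand, 5 mismatches: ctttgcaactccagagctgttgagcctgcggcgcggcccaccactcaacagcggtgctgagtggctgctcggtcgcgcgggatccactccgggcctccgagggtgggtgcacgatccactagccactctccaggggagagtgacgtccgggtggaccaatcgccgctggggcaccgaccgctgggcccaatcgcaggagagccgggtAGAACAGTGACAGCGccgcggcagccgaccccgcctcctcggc
SLC7A7, chr14:22815436-22815685, minus strand, 3 mismatches: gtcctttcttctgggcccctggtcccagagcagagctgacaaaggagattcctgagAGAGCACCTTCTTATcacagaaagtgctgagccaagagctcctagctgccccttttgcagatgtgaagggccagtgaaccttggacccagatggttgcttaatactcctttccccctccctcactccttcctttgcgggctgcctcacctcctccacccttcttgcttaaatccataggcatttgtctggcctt

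Of the 163 members, 130 had an entry in the RefSeq table, as had 22 of the 26 members called higher with Dex at either time. A stretch with at most 3 mismatches lay upstream of 11 members (8.46%) and of 4 of the 22 (18.2%), beside 11.2% of the 27305 genes of the table. The 4 were SLC7A7, SLC22A15, SLC39A13 and SLC41A2. SLC7A7 and SLC22A15 lie at the edge of the choice, SLC7A7 through its level at Dex 4 h. SLC1A3, SLC25A18 and SLC45A1 among the 22 lie there too, and no share here leaves these members out. With at most 2 mismatches the counts were 0 of 130 and 0 of 22, beside 1.46% of all genes. An exact AGAACA or TGTTCT arm, as in the capitals of SLC46A3, lay upstream of 17 members (13.1%) and of 4 of the 22 (18.2%), beside 14.8% of all genes. These are matches of letters close to the start. Binding elsewhere is not covered, and nothing follows from them about binding of GR.

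Inorganic ion carriers (22 members) had the largest shift in summed level with Dex. The class summed to 299 and 274 RPKM with vehicle, 542 and 569 after 2 h and 437 and 459 after 4 h of Dex, and 277 and 282 after 2 h and 239 and 244 after 4 h of CpdA. It had 2 higher and 3 lower after 2 h of Dex and 2 and 3 after 4 h, against 0 and 2 after 2 h of CpdA and 1 and 7 after 4 h. For all genes tested the higher and lower shares with Dex were 4.49% and 5.82% at 2 h and 9.26% and 18.2% at 4 h. With CpdA they were 1.89% and 4.29%, then 6.76% and 13.8%. Among the 7 falls at CpdA 4 h 1 held in every alternative, that of SLC9A7, and 6 ended in at least 1. With samples scaled to a common median, CpdA 4 h gave 1 higher and 4 lower. The sum followed SLC20A1 (PiT-1), a sodium-coupled phosphate importer, at 112 and 84.5 RPKM with vehicle, 359.7 and 385 after 2 h and 251 and 269.7 after 4 h of Dex, and 96.8 and 99.7 after 2 h and 65.1 and 67.6 after 4 h of CpdA. The vehicle pair was spread, yet the Dex pairs were above and the CpdA 4 h pair below both of its samples. The log2 change was 1.93 ± 0.11 (SE, limma adjusted p = 3.9e-06) at Dex 2 h, 1.42 ± 0.11 (SE, limma adjusted p = 1.5e-05) at Dex 4 h and -0.55 ± 0.11 (SE, limma adjusted p = 0.0074) at CpdA 4 h. Without CpdA 4 h replicate 1 the last did not pass (log2 -0.53, adjusted p = 0.058).

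Its close relative SLC20A2 (PiT-2), the other ubiquitous phosphate importer, moved in the opposite direction under each ligand. SLC20A2 lay at 18.2 and 18.0 RPKM with vehicle, 12.7 and 12.1 after 2 h and 12.2 and 11.7 after 4 h of Dex, and 19.5 and 18.5 after 2 h and 24.6 and 23.3 after 4 h of CpdA. It fell with Dex, with log2 changes of -0.54 ± 0.0494 (SE, limma adjusted p = 8.9e-05) at 2 h and -0.59 ± 0.0494 (SE, limma adjusted p = 2.5e-05) at 4 h, and rose with CpdA by 0.40 ± 0.0494 (SE, limma adjusted p = 0.00065) at 4 h. These calls held in every alternative.

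SLC26A2, a sulfate transporter, was the other ion carrier that rose with Dex. Its values were 7.86 and 7.88 RPKM with vehicle, 15.8 and 15.1 after 2 h and 17.8 and 21.2 after 4 h of Dex, and 5.80 and 6.26 after 2 h and 5.77 and 6.02 after 4 h of CpdA. All Dex samples were above and all CpdA samples below the vehicle pair. It rose by 0.96 ± 0.0798 (SE, limma adjusted p = 5e-05) at 2 h and 1.29 ± 0.0798 (SE, limma adjusted p = 3.3e-06) at 4 h. With CpdA the log2 change was -0.38 at 2 h and -0.41 at 4 h, calls that ended without CpdA 2 h replicate 1 (log2 -0.33, adjusted p = 0.21) and without CpdA 4 h replicate 1 (log2 -0.38, adjusted p = 0.061).

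SLC4A7 (NBCn1), which brings bicarbonate in with sodium, fell with Dex at 4 h. It measured 4.42 and 5.06 RPKM with vehicle and 2.09 and 2.89 at Dex 4 h, a change of -0.91 ± 0.15 (SE, limma adjusted p = 0.0015), whereas the change at 2 h (-0.58) did not pass without vehicle replicate 2 (log2 -0.48, adjusted p = 0.23). SLC9A7 (NHE7), a sodium and proton exchanger of the Golgi apparatus, had the largest called fall with CpdA at both times. It lay at 5.32 and 5.66 RPKM with vehicle, 3.61 and 3.73 after 2 h and 3.50 and 3.52 after 4 h of CpdA, and 5.26 and 4.88 after 2 h and 3.69 and 3.96 after 4 h of Dex. Changes were -0.57 ± 0.0683 (SE, limma adjusted p = 0.0017) and -0.63 ± 0.0683 (SE, limma adjusted p = 0.00036) with CpdA at 2 h and 4 h, and -0.51 ± 0.0683 (SE, limma adjusted p = 0.00051) with Dex at 4 h.

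Glucose and other hexose carriers (8 members) gave 1 call at each comparison, lower at Dex 2 h, Dex 4 h and CpdA 4 h and higher at CpdA 2 h. Shares of all genes called in those directions were 5.82%, 18.2%, 13.8% and 1.89%. SLC2A1 stood at 284 and 275 RPKM with vehicle, 242 and 237 after 2 h and 232 and 225 after 4 h of Dex, and 315 and 307 after 2 h and 310.3 and 297 after 4 h of CpdA. The 4 Dex samples lay below and the 4 CpdA samples above the vehicle pair. The log2 change with Dex was -0.22 ± 0.0417 (SE, limma adjusted p = 0.0081) at 2 h, a call that ended without Dex 2 h replicate 2 (log2 -0.21, adjusted p = 0.071). At 4 h it was -0.29 ± 0.0417 (SE, limma adjusted p = 0.00075), a call that held in every alternative. With CpdA the log2 changes of 0.15 and 0.12 did not pass (limma adjusted p = 0.066 and 0.078). SLC2A3 (GLUT3), a high-affinity glucose transporter, measured 10.0 and 7.66 RPKM with vehicle and 12.6 and 12.8 at CpdA 2 h, a change of 0.53 ± 0.11 (SE, limma adjusted p = 0.022) that ended without CpdA 2 h replicate 2 (log2 0.52, adjusted p = 0.14). SLC2A6 (GLUT6) was lower at CpdA 4 h (-0.24) and ended without CpdA 4 h replicate 1 (log2 -0.24, adjusted p = 0.079).

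Monocarboxylate carriers (5 members) were called by CpdA at 4 h, with 3 lower and 0 higher, beside 13.8% and 6.76% of all genes tested. SLC16A13 fell from 6.72 and 6.11 RPKM with vehicle to 4.57 and 4.88, a change of -0.43 ± 0.0701 (SE, limma adjusted p = 0.0028) that held in every alternative. SLC16A3 lay at 255 and 237 RPKM with vehicle, 203 and 192 at CpdA 4 h and 278 and 252 at Dex 4 h. Its change of -0.32 ± 0.0647 (SE, limma adjusted p = 0.0086) with CpdA ended without CpdA 4 h replicate 2 (log2 -0.28, adjusted p = 0.078), as did that of SLC16A5 (-0.32, and log2 -0.24, adjusted p = 0.23 without that sample). With Dex limma called 0 of the 5 at either time, and 0 at an unadjusted p under 0.05.

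Zinc carriers (17 members) had 0 higher and 1 lower at Dex 2 h and 1 and 1 at Dex 4 h. For CpdA the counts were 1 and 0 at 2 h and 2 and 1 at 4 h. Over all genes tested, the shares with Dex were 4.49% and 5.82%, then 9.26% and 18.2%. With CpdA they were 1.89% and 4.29%, then 6.76% and 13.8%. The class included a pair with opposite roles. SLC30A1 (ZnT1) moves zinc out of the cell, and SLC39A14 (ZIP14) brings zinc and iron in. SLC30A1 lay at 17.4 and 17.2 RPKM with vehicle, 14.1 and 15.1 after 2 h and 13.2 and 14.3 after 4 h of Dex, and 20.7 and 20.4 after 2 h and 21.6 and 21.7 after 4 h of CpdA. All Dex samples lay below and all CpdA samples above vehicle. The change at 4 h was -0.33 ± 0.0528 (SE, limma adjusted p = 0.0015) with Dex and 0.32 ± 0.0528 (SE, limma adjusted p = 0.0029) with CpdA, and those at 2 h ended without Dex 2 h replicate 1 (log2 -0.19, adjusted p = 0.16) and without CpdA 2 h replicate 1 (log2 0.24, adjusted p = 0.2).

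SLC39A14 stood at 28.7 and 30.2 RPKM with vehicle, 40.7 and 40.0 at CpdA 4 h and between 27.3 and 31.7 RPKM in the other 6 samples. Its rise of 0.45 ± 0.0653 (SE, limma adjusted p = 0.0015) at CpdA 4 h held in every alternative. SLC39A13 (ZIP13), the most abundant zinc carrier, was at 0.19 at Dex 4 h (limma adjusted p = 0.049), a call lost without Dex 4 h replicate 1 (log2 0.09, adjusted p = 0.19). SLC39A9 (ZIP9) was at -0.20 at CpdA 4 h, lost without CpdA 4 h replicate 2 (log2 -0.18, adjusted p = 0.15). The summed zinc carriers stayed between 329 and 342 RPKM in all 10 samples.

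Among carriers of other metals and heme (8 members), Dex called 3 higher and 4 lower at 4 h, or 3 and 3 without SLC40A1, which lies at the edge of the choice. The shares over all genes at that time were 9.26% and 18.2%. In the direct comparison of the times 2 were higher and 1 lower at 4 h of Dex than at 2 h, beside 4.55% and 9.02% of all genes tested. SLC40A1 (ferroportin), the iron exporter, measured 1.28 and 0.981 RPKM with vehicle, 0.687 and 0.764 at Dex 4 h and 1.83 and 2.05 at CpdA 4 h, log2 differences of -0.57 and 0.74. Its 3 groups did not overlap, at a level where the 11 members at the edge of the choice lie. SLC11A2 (DMT1), an iron importer, fell at Dex 4 h from 6.35 and 5.53 to 4.31 and 4.31 RPKM (-0.45 ± 0.0730 (SE, limma adjusted p = 0.0016)). SLC31A2, a copper transporter-like protein, lay at 23.7 and 26.4 RPKM with vehicle, 31.6 and 31.8 at Dex 4 h and 21.3 and 20.8 at CpdA 4 h. It rose with Dex at 4 h (0.34 ± 0.0549 (SE, limma adjusted p = 0.0016)). With CpdA its log2 changes were -0.27 at 2 h and -0.25 at 4 h, and they ended without replicate 2 of those groups (log2 -0.23, adjusted p = 0.19, and log2 -0.23, adjusted p = 0.096).

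The remaining calls of the metal carriers at Dex 4 h were small. SLC41A2, a magnesium transporter, was at 0.32 and SLC31A1 (CTR1), the copper importer, at -0.25. Neither passed in every analysis, with log2 0.26, adjusted p = 0.095 without vehicle replicate 1 for SLC41A2 and log2 -0.22, adjusted p = 0.055 without vehicle replicate 2 for SLC31A1. SLC41A1 and SLC41A3, of the same magnesium family, were at -0.28 and 0.15. They ended without vehicle replicate 2 (log2 -0.23, adjusted p = 0.12) and without Dex 4 h replicate 1 (log2 0.11, adjusted p = 0.14).

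Of the organic anion and cation carriers (11 members), Dex called 2 higher and 0 lower at 2 h and 4 and 1 at 4 h, or 3 and 1 at 4 h without SLC22A15, which lies at the edge of the choice. For all genes tested the shares with Dex were 4.49% and 5.82% at 2 h and 9.26% and 18.2% at 4 h. Limma called 0 of the 11 with CpdA at either time, against 1 and 2 at an unadjusted p under 0.05. SLC17A5 (sialin) exports sialic acid from lysosomes and was the most abundant of the class. It lay at 35.5 and 36.2 RPKM with vehicle, 53.5 and 52.7 after 2 h and 81.9 and 86.1 after 4 h of Dex, and 34.5 and 33.7 after 2 h and 37.3 and 36.4 after 4 h of CpdA. The replicates were close and the Dex groups separate, with changes of 0.57 ± 0.0399 (SE, limma adjusted p = 1.7e-05) at 2 h and 1.23 ± 0.0399 (SE, limma adjusted p = 6.5e-08) at 4 h. SLC22A5 (OCTN2), the carnitine importer, rose from 5.42 and 5.63 to 8.54 and 8.90 and 9.94 and 10.0 RPKM, by 0.65 ± 0.0502 (SE, limma adjusted p = 3.3e-05) and 0.84 ± 0.0502 (SE, limma adjusted p = 2.7e-06). SLC22A4 (OCTN1), its neighbour in the family, rose at Dex 4 h by 0.42 ± 0.0646 (SE, limma adjusted p = 0.0011). SLC22A15 lay at 1.12 and 0.999 RPKM with vehicle and 1.92 and 1.98 at Dex 4 h. SLC10A7 was lower at Dex 4 h (-0.41), which ended without vehicle replicate 1 (log2 -0.37, adjusted p = 0.12).

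Nucleoside and nucleobase carriers (4 members) had 2 higher and 0 lower after 2 h of Dex, 2 and 1 after 4 h, and 0 and 2 after 4 h of CpdA. For all genes tested these shares were 4.49% and 5.82%, 9.26% and 18.2%, and 6.76% and 13.8%. SLC29A3 (ENT3), a nucleoside carrier of lysosomes, measured 3.16 and 3.11 RPKM with vehicle, 4.52 and 4.54 after 2 h and 7.89 and 7.91 after 4 h of Dex, and 3.01 and 2.72 after 2 h and 2.98 and 3.15 after 4 h of CpdA. It rose by 0.52 ± 0.0670 (SE, limma adjusted p = 0.0009) and 1.31 ± 0.0670 (SE, limma adjusted p = 9.7e-07) with Dex, with replicates nearly equal. SLC43A3, a purine nucleobase carrier, lay at 83.6 and 79.0 RPKM with vehicle, 97.2 and 101 after 2 h and 101 and 104 after 4 h of Dex, and 72.8 and 75.1 after 2 h and 59.2 and 60.7 after 4 h of CpdA. It rose with Dex at 2 h (0.28 ± 0.0426 (SE, limma adjusted p = 0.0024)) and 4 h (0.34 ± 0.0426 (SE, limma adjusted p = 0.00035)) and fell with CpdA at 4 h (-0.44 ± 0.0426 (SE, limma adjusted p = 0.0002)). SLC29A1 (ENT1), the main plasma membrane nucleoside carrier, fell from 73.6 and 73.0 RPKM to 63.3 and 61.6 at CpdA 4 h (-0.23 ± 0.0397 (SE, limma adjusted p = 0.0038)). Its change at Dex 4 h (-0.16) ended without vehicle replicate 1 (log2 -0.16, adjusted p = 0.061).

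**Figure D3:**
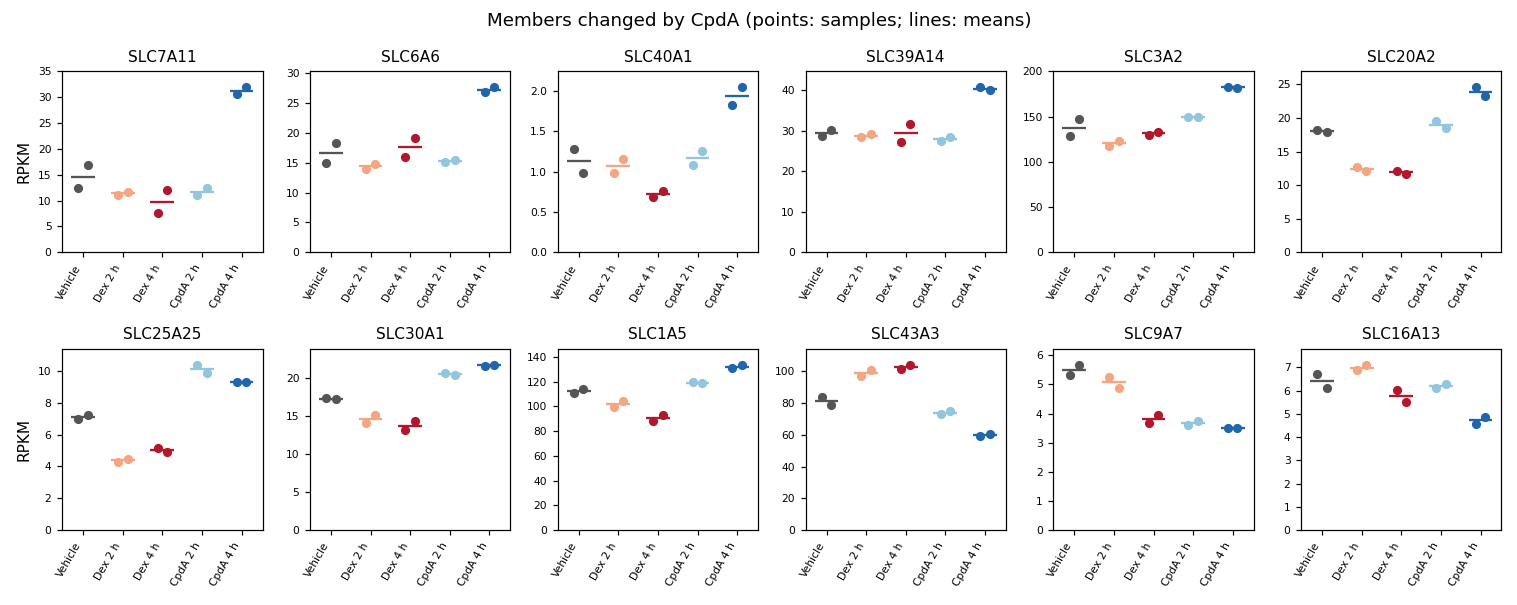
RPKM (vertical axes, each from 0) in the 5 groups of 12 members named for a change with CpdA, where points are the 2 samples of a group and lines their mean. SLC7A11, SLC6A6, SLC40A1 and SLC39A14 stood out at CpdA 4 h, SLC25A25 and SLC30A1 were already above vehicle at CpdA 2 h, and SLC9A7 was already below it. SLC40A1 is a member at the edge of the choice.

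Of the mitochondrial carriers, the largest class with 36 members, Dex called 3 higher and 10 lower at 4 h and 1 and 2 at 2 h, or 2 and 10 and 0 and 2 without SLC25A18. All genes tested also had more lower than higher calls at Dex 4 h (18.2% and 9.26%). Of the 10 falls 2 held in every alternative, SLC25A25 and SLC25A37, and 8 ended in at least 1, and with samples scaled to a common median the counts were 3 higher and 5 lower. With CpdA the counts were 1 and 1 at 2 h and 3 and 2 at 4 h. The shares over all genes tested were then 1.89% and 4.29%, and 6.76% and 13.8%. At Dex 2 h they were 4.49% and 5.82%. SLC25A25, a calcium-regulated carrier of ATP-Mg and phosphate, was called in all 4 comparisons. It stood at 6.97 and 7.24 RPKM with vehicle, 4.31 and 4.46 after 2 h and 5.18 and 4.91 after 4 h of Dex, and 10.4 and 9.86 after 2 h and 9.28 and 9.29 after 4 h of CpdA. Dex samples were below and CpdA samples above vehicle, without overlap. The changes were -0.68 ± 0.0549 (SE, limma adjusted p = 4.1e-05) and -0.49 ± 0.0549 (SE, limma adjusted p = 0.00018) with Dex and 0.50 ± 0.0549 (SE, limma adjusted p = 0.0011) and 0.38 ± 0.0549 (SE, limma adjusted p = 0.0015) with CpdA, all called in every alternative.

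SLC25A37 (mitoferrin-1), which carries iron into mitochondria, fell with Dex at 4 h. It lay at 24.2 and 23.2 RPKM with vehicle, 18.4 and 18.8 after 2 h and 16.1 and 13.5 after 4 h of Dex, and 20.6 and 20.8 after 2 h and 18.5 and 17.6 after 4 h of CpdA, all treated samples below vehicle. The change at Dex 4 h was -0.69 ± 0.0746 (SE, limma adjusted p = 0.00014). Those at Dex 2 h and CpdA 4 h ended without Dex 2 h replicate 1 (log2 -0.34, adjusted p = 0.11) and without CpdA 4 h replicate 2 (log2 -0.36, adjusted p = 0.057). SLC25A18, a mitochondrial glutamate carrier, was at 0.164 and 0.198 RPKM with vehicle, 0.567 and 0.614 after 2 h and 1.36 and 1.11 after 4 h of Dex, and 0.108 and 0.0724 after 2 h and 0.110 and 0.157 after 4 h of CpdA, a level of few reads at which the pseudocount understates any fold. The abundant SLC25A3 was called in none of the 4, between 241 and 280 RPKM.

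In the smaller classes single genes led. SLC6A6, the taurine importer, measured 14.9 and 18.2 RPKM with vehicle, 14.0 and 14.8 after 2 h and 16.0 and 19.1 after 4 h of Dex, and 15.1 and 15.4 after 2 h and 26.8 and 27.6 after 4 h of CpdA. Only the CpdA 4 h pair stood apart, with a rise of 0.72 ± 0.10 (SE, limma adjusted p = 0.0013). SLC5A3 (SMIT1), which imports myo-inositol, fell with Dex at 4 h from 6.40 and 6.12 to 3.04 and 4.49 RPKM (-0.74 ± 0.15 (SE, limma adjusted p = 0.0061)). SLC18A2 (VMAT2), a vesicular monoamine transporter, lay at 2.10 and 2.15 RPKM with vehicle and 1.41 and 1.65 at CpdA 4 h, a change of -0.45 ± 0.0988 (SE, limma adjusted p = 0.012) that ended without CpdA 4 h replicate 1 (log2 -0.35, adjusted p = 0.11).

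SLC45A3 (prostein) fell with both ligands at 4 h. It lay at 2.99 and 3.40 RPKM with vehicle, 2.67 and 2.95 after 2 h and 1.53 and 1.69 after 4 h of Dex, and 3.37 and 3.17 after 2 h and 2.14 and 2.06 after 4 h of CpdA. At 4 h the changes were -0.94 ± 0.0938 (SE, limma adjusted p = 8.1e-05) with Dex and -0.58 ± 0.0938 (SE, limma adjusted p = 0.0028) with CpdA. Its relative SLC45A1 stood at 0.880 and 0.731 RPKM with vehicle, 1.41 and 1.27 after 2 h and 2.02 and 1.68 after 4 h of Dex, and 1.06 and 0.975 after 2 h and 0.654 and 0.658 after 4 h of CpdA.

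Among carriers of nucleotide sugars and sugar phosphates (9 members), Dex gave 2 higher and 0 lower at 2 h and 2 and 2 at 4 h, and CpdA 0 and 1, then 0 and 2. Over all genes tested, the shares with Dex were 4.49% and 5.82%, then 9.26% and 18.2%. With CpdA they were 1.89% and 4.29%, then 6.76% and 13.8%. SLC35A3, which brings UDP-N-acetylglucosamine into the Golgi, rose at Dex 4 h from 6.50 and 6.52 to 8.65 and 9.09 RPKM (0.44 ± 0.0520 (SE, limma adjusted p = 0.00023)). SLC37A2, a sugar phosphate carrier of the endoplasmic reticulum, rose from 43.9 and 44.0 to 54.6 and 59.4 RPKM (0.37 ± 0.0518 (SE, limma adjusted p = 0.00064)). Both lay below vehicle with CpdA. SLC35A3 was at 5.50 and 5.70 RPKM at CpdA 2 h and 5.43 and 5.55 at 4 h, and its calls ended without replicate 1 of those groups (log2 -0.19, adjusted p = 0.3, and log2 -0.23, adjusted p = 0.091). For SLC37A2 the change at CpdA 4 h (-0.18) ended without CpdA 4 h replicate 1 (log2 -0.15, adjusted p = 0.21). At Dex 2 h both were called and neither held without Dex 2 h replicate 2 (log2 0.18, adjusted p = 0.21, and log2 0.24, adjusted p = 0.07). Of the 5 fatty acid and acetyl-CoA carriers, 0 were called with Dex at either time, and 0 at an unadjusted p under 0.05. SLC27A4 (FATP4) was at -0.18 and -0.23 with CpdA at 2 h and 4 h, calls that ended without replicate 1 of those groups (log2 -0.17, adjusted p = 0.28, and log2 -0.21, adjusted p = 0.068).

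Dex and CpdA were also compared with each other at each time, which leaves the vehicle samples out of the difference though not out of the estimate of spread. The doses differ, 100 nM and 10 μM, as do the compounds, so these are differences between the treatments as given. At 2 h, 20 members were higher with Dex (12.3%, against 7.53% of all genes tested) and 8 lower (4.91%, against 6.18%). At 4 h, 42 were higher (25.8%, against 15.4%) and 34 lower (20.9%, against 18.0%). Among the 152 members these counts were 19 and 8 at 2 h and 37 and 33 at 4 h. By class, the 4 h difference gave 8 higher and 8 lower among amino acid carriers, 5 and 2 among inorganic ion carriers, 5 and 1 among organic anion and cation carriers, 3 and 0 among nucleoside carriers, 3 and 0 among monocarboxylate carriers, 1 and 3 among glucose carriers, 3 and 4 among zinc carriers and 2 and 7 among mitochondrial carriers. Without the members at the edge of the choice the higher counts were 6 for amino acid, 4 for organic anion and cation and 1 for mitochondrial carriers.

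The members that led on either side did so by wide margins. At 4 h the log2 ratio of Dex to CpdA was 3.34 ± 0.13 (SE, limma adjusted p = 1.2e-07) for SLC7A2, 2.00 ± 0.13 (SE, limma adjusted p = 4.4e-06) for SLC46A3 and 1.97 ± 0.11 (SE, limma adjusted p = 1.4e-06) for SLC20A1. On the other side it was -1.70 ± 0.19 (SE, limma adjusted p = 0.00015) for SLC7A11 and -1.0 ± 0.0494 (SE, limma adjusted p = 7e-07) for SLC20A2. For SLC25A25 it was -1.19 ± 0.0549 (SE, limma adjusted p = 8.4e-07) at 2 h and -0.87 ± 0.0549 (SE, limma adjusted p = 3.3e-06) at 4 h, and for the zinc exporter SLC30A1 -0.49 ± 0.0528 (SE, limma adjusted p = 0.00022) and -0.65 ± 0.0528 (SE, limma adjusted p = 1.6e-05). GLUT1 (SLC2A1) was lower with Dex than with CpdA at 2 h (-0.38 ± 0.0417 (SE, limma adjusted p = 0.00027)) and 4 h (-0.41 ± 0.0417 (SE, limma adjusted p = 7.2e-05)), and SLC1A5 likewise (-0.22 ± 0.0412 (SE, limma adjusted p = 0.006) and -0.55 ± 0.0412 (SE, limma adjusted p = 1.1e-05)). The lactate exporter SLC16A3 was higher with Dex at 4 h (0.43 ± 0.0647 (SE, limma adjusted p = 0.00089)). SLC9A7, lowered by both, did not differ past the threshold at 4 h (0.12 ± 0.0683 (SE, limma adjusted p = 0.21)), though at 2 h it was higher with Dex (0.45 ± 0.0683 (SE, limma adjusted p = 0.0018)).

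**Figure D4:**
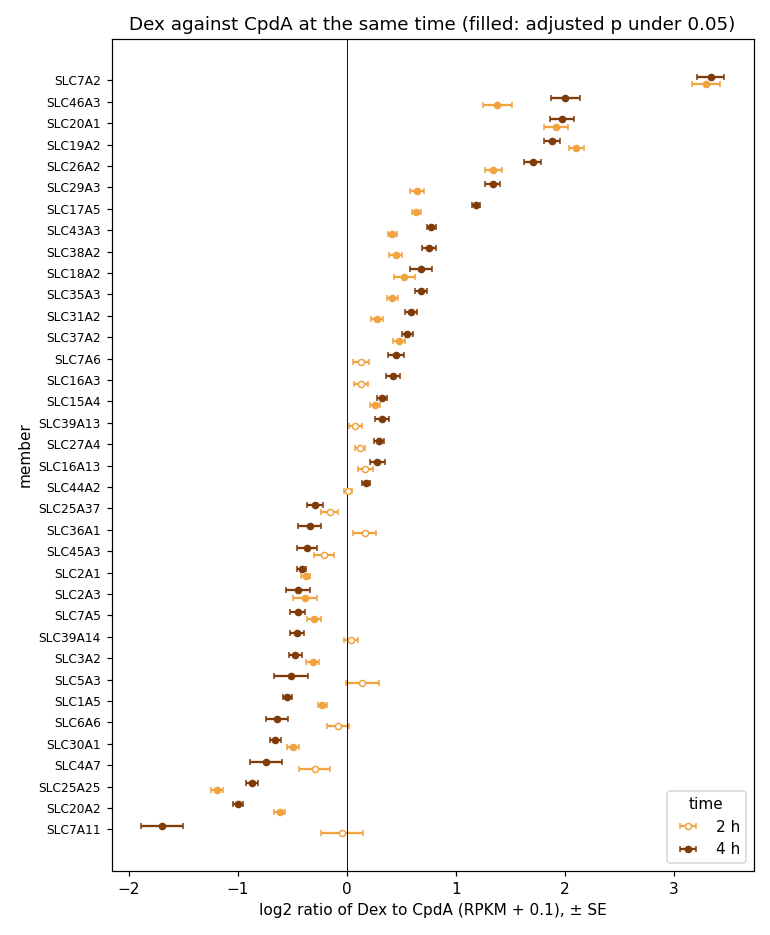
Log2 ratio of Dex to CpdA (horizontal axis, with the SE of limma) at 2 h and 4 h for the 36 named members at 1 RPKM or more in every sample whose ratio passed at 4 h, in order of the 4 h value, where filled points passed an adjusted p under 0.05. SLC7A2 lies farthest to the right at 3.34 and SLC7A11 farthest to the left at -1.70, and SLC7A11 and SLC6A6 were near 0 at 2 h.

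Members were also compared between 2 h and 4 h within each ligand. Vehicle has no labelled time point, so these differences cannot be told apart from changes with time alone. Between 2 h and 4 h of Dex, 15 members were called higher (9.20%, against 4.55%) and 15 lower (9.20%, against 9.02%), or 21 and 9 with samples scaled to a common median. Between 2 h and 4 h of CpdA, 15 were higher (9.20%, against 5.21%) and 11 lower (6.75%, against 7.20%), or 18 and 8 with that scaling. Among the 152 members the counts were 12 and 14 for Dex and 14 and 10 for CpdA. Of the amino acid carriers 8 were higher and 1 lower at 4 h of CpdA than at 2 h. SLC7A11 rose by 1.41 ± 0.19 (SE, limma adjusted p = 0.0035) between these times and SLC6A6 by 0.83 ± 0.10 (SE, limma adjusted p = 0.002). With Dex, SLC17A5 (0.66 ± 0.0399 (SE, limma adjusted p = 5.2e-05)) and SLC29A3 (0.79 ± 0.0670 (SE, limma adjusted p = 0.00021)) went on rising, whereas SLC19A2 (-0.42 ± 0.0710 (SE, limma adjusted p = 0.0059)) and SLC20A1 (-0.52 ± 0.11 (SE, limma adjusted p = 0.016)) came down from their 2 h level. The counts depended on the samples: the Dex count of 30 was 7 and 12 without Dex 2 h replicate 1 and 2, 49 without Dex 4 h replicate 2 and 19 without either CpdA 2 h replicate. The CpdA count of 26 was 5 and 4 without CpdA 2 h replicate 1 and 2, 5 without either CpdA 4 h replicate and 45 without either Dex 4 h replicate.

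Other carriers and partners lie outside the naming pattern, among them the SLCO organic anion transporters, the SLC35B to SLC35G nucleotide sugar family and the mitochondrial pyruvate carriers. Of 68 such genes listed, 44 were tested. Dex called 2 higher and 1 lower at 2 h and 6 and 6 at 4 h, and CpdA 1 and 5 at 2 h and 1 and 9 at 4 h. Of all genes tested, Dex called 4.49% higher and 5.82% lower at 2 h and 9.26% and 18.2% at 4 h. CpdA called 1.89% and 4.29% at 2 h and 6.76% and 13.8% at 4 h. Their median log2 change was 0.01 and -0.02 with Dex at 2 h and 4 h, and -0.05 and -0.08 with CpdA.

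In hg19 coordinates (GRCh37), SLC19A2 spans chromosome 1 from 169433147 to 169455182 on the minus strand, SLC20A1 chromosome 2 from 113403516 to 113421402 on the plus strand, SLC46A3 chromosome 13 from 29274201 to 29293107 on the minus strand, SLC7A11 chromosome 4 from 139085251 to 139163503 on the minus strand and SLC25A25 chromosome 9 from 130830480 to 130871524 on the plus strand. All are annotated as protein-coding.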

How the data were processed

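RNA from MDA-MB-231 cells was sequenced in 10 samples of 5 groups of 2. Per the labels and the methods, the authors aligned single-end reads with TopHat2 2.0.13 and estimated abundance with Partek 6.6, and deposited RPKM per gene symbol, with hg19 in the submitters' processing notes. Those steps fix which reads count towards near-identical genes, and carriers with close relatives may share reads. Read totals were not given, so no interval from counts could be made.

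From the deposited RPKM, log2(RPKM + 0.1) was taken for the 12713 genes at 0.5 RPKM or more in at least 2 samples, with no further normalization. A pseudocount understates folds of low genes. Group means were compared with limma 3.58.1 in R 4.3.3 (lmFit, contrasts.fit, eBayes with an abundance trend) over all 5 groups, which share 1 estimate of spread, with Benjamini-Hochberg adjustment across every gene tested. The fit was tested on simulated data. Groups of 2 are too small for a permutation test of a gene to reach 0.05. The labels do not say that replicates are separate cultures, while the methods call them biological, so p-values measure the spread between these samples.

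The members, the substrate classes and the gene lists were chosen with earlier results of these data known. Named were members past 2-fold, the 6 largest called increases and decreases in each comparison with replicates on 1 side of vehicle, the most abundant of each class, members called in opposite directions by the 2 ligands at 1 time and those at the edge of the choice. Other members are named where a count of few calls is given, chosen after their values were seen. Alternatives were other pseudocounts, filters, scalings and variance settings, only the groups compared, a replicate block and each sample left out. Upstream sequence came from RefSeq (GRCh38.p14) and gene positions from GENCODE lifted to GRCh37. Tables used Python 3.11.15, pandas 2.3.3 and numpy 2.4.6, figures matplotlib 3.10.9. GR binding data of the series were not analysed here.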

Additional observations from a re-analysis of the deposited data

Results flagged for a closer look

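The named members below, all at 1 RPKM or more in every sample, differed between 2 h and 4 h of the same ligand, tested as the difference between the treated groups in limma with an adjusted p under 0.05. All values are log2 differences, 4 h minus 2 h.

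With Dex, SLC29A3 (0.789), SLC17A5 (0.660), SLC46A3 (0.555), SLC38A2 (0.431), SLC7A6 (0.403), SLC31A2 (0.336), SLC26A2 (0.329), SLC35A3 (0.237) and SLC25A25 (0.199) were higher at 4 h. SLC45A3 (-0.766), SLC5A3 (-0.604), SLC20A1 (-0.515), SLC19A2 (-0.418), SLC9A7 (-0.397), SLC25A37 (-0.333), SLC16A13 (-0.275) and SLC1A5 (-0.171) were lower. SLC25A25 was below vehicle at both times and nearer to it at 4 h.

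With CpdA, SLC7A11 (1.41), SLC6A6 (0.831), SLC39A14 (0.524), SLC36A1 (0.504), SLC7A5 (0.333), SLC20A2 (0.332), SLC3A2 (0.286) and SLC1A5 (0.151) were higher at 4 h. SLC45A3 (-0.613), SLC20A1 (-0.566), SLC16A13 (-0.384), SLC43A3 (-0.301), SLC16A3 (-0.245) and SLC44A2 (-0.147) were lower.

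SLC1A5 moved down between the times with Dex and up with CpdA. SLC20A1, SLC45A3 and SLC16A13 moved down with both. Whether the time difference itself differed between the ligands was not tested. Without a labelled time for vehicle, these differences cannot be told apart from changes with time alone.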

How the results depend on the processing

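With only the samples of the 2 groups compared, the calls among members were 32 at Dex 4 h (55 in the fit over all groups), 7 at CpdA 2 h (12), 12 for Dex 4 h against 2 h (30) and 65 for CpdA 4 h against 2 h (26). With no filter on low values they were 4 at CpdA 2 h, 18 for Dex 4 h against 2 h and 16 for CpdA 4 h against 2 h, and without a variance trend 6 at CpdA 2 h. Leaving out 1 sample gave 15 to 30 at Dex 2 h, 46 to 75 at Dex 4 h, 2 to 22 at CpdA 2 h, 20 to 64 at CpdA 4 h, 21 to 33 for Dex against CpdA at 2 h, 53 to 86 at 4 h, 7 to 49 for Dex 4 h against 2 h and 4 to 45 for CpdA 4 h against 2 h. The causes were not tested. With 1 sample left in a group, that sample is assumed to vary like the other groups.

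The deviations of same-numbered replicates had correlations over genes from -0.0568 to 0.198 over the 10 pairs of groups. The value was over 0.1 in 3 of the 10 and not in the other 7, so the numbers were not treated as pairing the samples. A fit with a replicate block gave counts of 25, 63, 16 and 44 for Dex 2 h, Dex 4 h, CpdA 2 h and CpdA 4 h against vehicle, 30 and 80 for Dex against CpdA at 2 h and 4 h, and 39 and 29 for 4 h against 2 h of Dex and CpdA.

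Of 79 called values of named members at 1 RPKM or more in every sample, 48 were called in every alternative, 21 ended in at least 1 of those that used all samples and 31 in at least 1 that left out a sample, and 0 changed sign. The unknown read totals limit what can be said of members near 1 RPKM.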
